A study of Rattus norvegicus with 2 samples.

Results

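Broad isolated RYBP peaks are regions of at least 1500 and under 5000 bp that stand alone among other RYBP peaks but not far from them. They were chosen by measured values, namely the width of a peak and its gaps to the peaks on either side. Both gaps had to be at least 12500 bp and the smaller one under 100000 bp, and the first and last peak of each chromosome were left out. This rule gave 1414 of the 41598 peaks of the list, 3.40% of it. The comparison group held the 8992 isolated peaks under 1500 bp with the same gaps, called narrow isolated peaks here.

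The list came from 1 RYBP ChIP sample of cardiomyocytes (CMs) isolated from newborn rat heart, wild type and untreated according to the labels, and was called against 1 input sample of the same cells. The cells were kept in DMEM with serum. The strain, the sex and the number of animals were not given in the sources used here, and a peak list holds no marker genes by which the cell type could be checked. No replicate, sequencing depth or gene annotation of the build was analysed, so each value describes this list without a p-value, and the intervals below cover counting error only.

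RYBP is a subunit of non-canonical Polycomb repressive complex 1, in which it partners the RING1 ubiquitin ligases that mark histone H2A. Polycomb proteins are best known for keeping developmental genes silent, and RYBP has also been placed at active enhancers. Super-enhancers (SEs) are groups of enhancers close to one another, and the study joined enhancers over 12.5 kb to define them. That distance separates isolated peaks from joined ones here, so the broad isolated peaks are wide RYBP regions that lie outside clusters of RYBP peaks. H3K27ac, the mark of SEs, was not analysed here.

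The members were first described by width and spacing. The median width was 1920.5 bp, with quartiles of 1671 and 2391.5 bp. In total, 792 members (56.0%) were narrower than 2000 bp and 156 (11.03%) reached 3000 bp. Together they covered 3.03 Mb, which was 6.92% of the bases in all peaks. The smaller gap had a median of 30187 bp and the larger one a median of 84949 bp, and the typical member was therefore off-centre between its neighbours, with a median ratio of 2.26 between its gaps. Both gaps were under 100 kb in 811 members (57.4%). The narrow isolated peaks had a similar asymmetry, with a median ratio of 2.21, and both gaps under 100 kb in 64.6%. Over all peaks of the list the median ratio was higher, 2.93, so the members were less off-centre than the typical peak.

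The neighbourhoods were populated only in the sense of the rule. A member had a median of 19 other peaks within 500 kb of its centre, with quartiles of 10 and 40, whereas the median over all peaks of the list was 47. In total, 1126 members (79.6%) lay below this value, and so did 80.4% of the narrow isolated peaks, whose median was 20. The range ran from 1 other peak, found for 15 members, to 149. Broad and narrow isolated peaks thus lay in surroundings of about the same peak density, and both in sparser ones than most peaks of the list.

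The strength of the members was described by fold enrichment, which is how many times the ChIP signal exceeds its local background, as a mean across the region. Broad isolated peaks were enriched 6.28-fold by the median (95% interval 6.18 to 6.42), with quartiles of 4.95 and 7.90 and a range from 2.54 to 18.3. The narrow isolated peaks had a median of 3.62 (3.58 to 3.65), with quartiles of 2.97 and 5.03. The ratio of the medians was 1.74. Of the members, 73.8% were above the upper quartile of the narrow isolated peaks, and 138 (9.76%) were below their median. Width and fold enrichment were measured on the same reads, and a stronger site can be called as a wider one, so this ratio describes the groups and was not tested.

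Significance followed the same order. The value used was −log10 q, in which q is a p-value after correction for multiple testing. The median was 24.8 in broad and 4.17 in narrow isolated peaks. Among all peaks of the list, 25.3% had −log10 q of at least 10 and 71.2% had at least 2. A −log10 q of 2 is a q of 0.01, the false discovery rate that the methods name for calling peaks, and 11969 peaks of the list (28.8%) were under it by their mean over the region. Counts over the list include these regions. Among the members, 1170 (82.7%, 95% interval 80.7 to 84.6) reached 10 and 1378 (97.5%, 96.5 to 98.2) reached 2. Among the narrow isolated peaks these shares were 33.1% (32.1 to 34.1) and 75.1% (74.2 to 76.0). Since the rule used peaks of the same contrast, nothing is read from the distance of these shares from those of the list.

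The members filled mainly the upper part of the −log10 q distribution. On a logarithmic axis, 376 members (26.6%) fell between 25.1 and 39.8, which was the fullest of the classes. A total of 53 members (3.75%) fell between 1.58 and 2.51, the class that held the most narrow isolated peaks (1684, 18.7%). Narrow isolated peaks had a second, lower maximum between 15.8 and 25.1 (12.3%), and the members held 24.0% in that class.

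**Figure D1:**
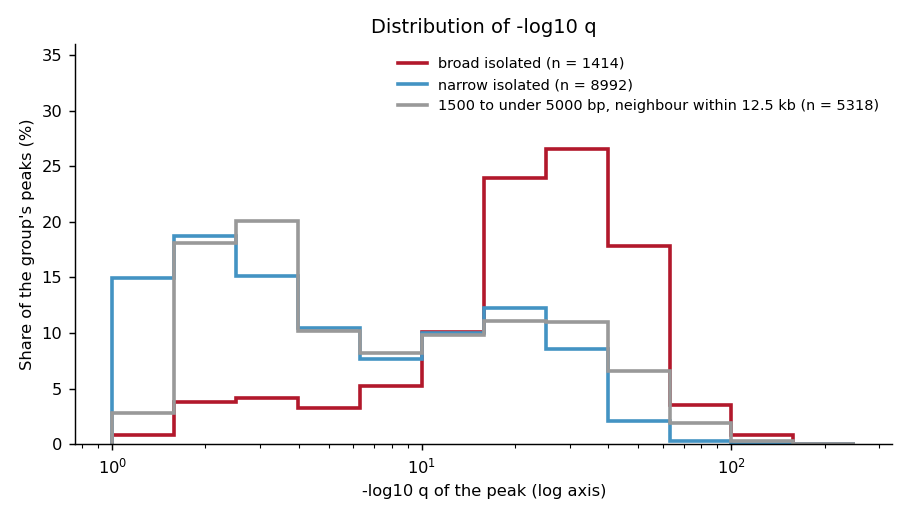
Share of each group's peaks (%) by −log10 q on a logarithmic axis, for broad isolated peaks (red), narrow isolated peaks (blue) and peaks of 1500 to under 5000 bp with a neighbour within 12.5 kb (grey). The broad isolated peaks have their maximum of 26.6% between 25.1 and 39.8, whereas both other groups have theirs below 4.

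The strongest members were then examined singly. The member with the highest −log10 q and the highest fold enrichment was chr7:128586497-128589673 in Rnor_6.0, where the fold enrichment was 18.3 and −log10 q 140.03 over 3177 bp. Its gaps were 16279 and 39505 bp. The next by −log10 q was chr6:104405917-104410272, a region of 4356 bp in which they were 18.1 and 130.55. Both were the strongest of all peaks within 500 kb of their centres, where 14 and 17 other peaks were found.

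The third by −log10 q, chr8:115980980-115983410, was enriched 14.04-fold at a −log10 q of 129. It was unequally spaced, with a gap of 349171 bp on the left and 28294 bp on the right, and yet 75 other peaks lay within 500 kb. The fourth, chr9:96720892-96723417, was enriched 16.8-fold, also at a −log10 q of 129. The fifth, chr3:111669615-111671399, was enriched 17.9-fold at a −log10 q of 128 over only 1785 bp. A further peak on the same chromosome, chr3:141303307-141306516, was the third by fold enrichment, with 18.01, and had −log10 q of 119.9. Each of these 4 was also the strongest peak within 500 kb. Genes at these positions are not named, because an annotation of Rnor_6.0 was not used here.

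At the other end, 36 members (2.55%) had −log10 q under 2, and so a mean q above that threshold. Their medians were 2.86 for fold enrichment, 1741.5 bp for width and 41.5 for the other peaks within 500 kb. None of the 36 was the strongest peak within 500 kb, which allows a share of up to 9.64% by the upper Wilson limit and of 8.33% by a limit of 3 counts. The lowest value was that of chr10:38031629-38033308, enriched 2.64-fold at a −log10 q of 1.14, which ranked 30th among itself and 33 other peaks. It was followed by chr2:209989667-209991174 with 1.23, chr1:201354503-201356144 with 1.25, chr5:168542353-168543934 with 1.28 and chr6:134645022-134646535 with 1.36. The 157 members that reached a −log10 q of 50 were 2191 bp wide and had 17 other peaks within 500 kb by their medians. They held the first rank there in 76.4% (69.2 to 82.4). Both sets were chosen by −log10 q, and fold enrichment comes from the same contrast. It ran from 2.54 to 3.08 in the 36 and from 6.96 to 18.3 in the 157. Their difference in first rank therefore follows largely from the choice, and nothing is read from it. These 157 made up 22.7% of the 693 peaks of the list that reached 50. Of the 693, 82 were narrow isolated peaks, 240 were peaks of the members' width with a neighbour within 12.5 kb, and 65 were peaks of that width with both gaps of at least 100 kb. A −log10 q of 50 was reached by 11.1% of the members, 14.4% of the latter group and 1.67% of all peaks of the list.

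Whether the fold enrichment followed the width was evaluated next. Among the members the median rose from 5.94 in 792 peaks of 1500 to 1999 bp through 6.45 in 314 peaks of 2000 to 2499 bp and 6.61 in 152 peaks of 2500 to 2999 bp, to 7.21 in 123 peaks of 3000 to 3999 bp and 7.87 in 33 peaks of 4000 to under 5000 bp. The spread within a class was wider than the step between classes, and the Spearman rho between fold enrichment and width was only 0.17 across the 1414 members. In the narrow isolated peaks the rho was 0.44. Their medians went from 3.23 under 500 bp to 5.30 at 1000 to 1499 bp. The steepest part of the relation therefore lay below the width limit of the rule.

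**Figure D2:**
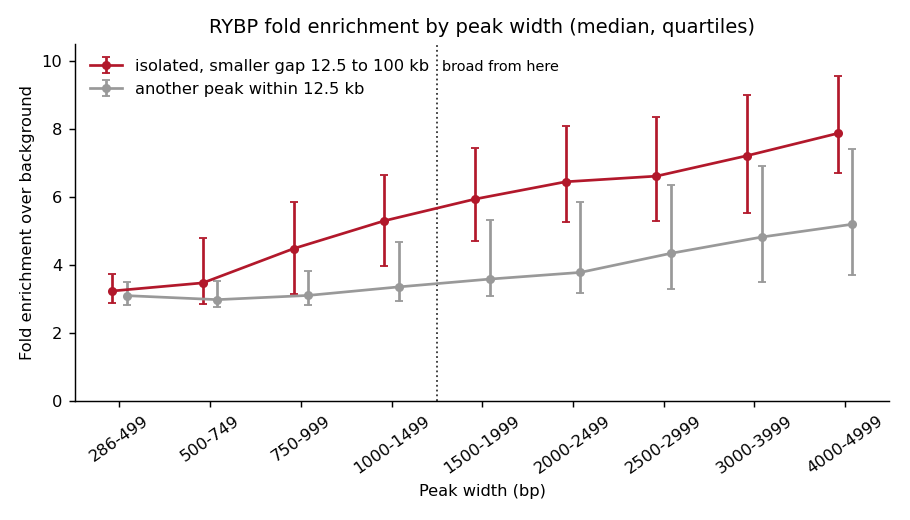
Fold enrichment over background (linear axis) by peak width in bp, for isolated peaks with a smaller gap of 12.5 to 100 kb (red) and for peaks with another peak within 12.5 kb (grey). Points are medians, bars run from the lower to the upper quartile, and the dotted line marks 1500 bp. The red medians go from 3.23 to 7.87 and lie above the grey ones in each class of width.

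Peaks of the same width that had a neighbour within 12.5 kb were set beside the members, so that spacing could be read with width held in 1 range. These 5318 joined peaks had a median fold enrichment of 3.93 (3.84 to 4.01) and a median −log10 q of 5.95, and 40.7% of them (39.3 to 42.0) reached −log10 q of 10. They were somewhat wider than the members, with a median of 2141 bp. The ratio of the median fold enrichment, members over joined peaks, was 1.60. At 1500 to 1999 bp the joined peaks had a median of 3.58, and at 4000 to under 5000 bp one of 5.20, each below the members of the same class. The 452 remote peaks of this width, with both gaps of at least 100 kb, had a median of 6.78 (6.431 to 6.997), and the members reached 0.93 of it, with intervals of the medians that did not overlap.

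The members were thus nearer to the remote peaks than to the joined ones, but the change along the gap was gradual. Classes of the smaller gap for this width range were chosen after seeing the data. The median fold enrichment was 3.63 for gaps under 1 kb, 3.75 from 1 to 2.5 kb, 4.11 from 2.5 to 5 kb and 5.22 from 5 to 12.5 kb. Within the members it was 6.09 from 12.5 to 25 kb, 6.24 from 25 to 50 kb and 6.67 from 50 to 100 kb. It was 6.96 from 100 to 200 kb and 6.47 above that, with intervals of the median (6.60 to 7.34 and 6.19 to 6.90) that overlapped. The larger part of the rise therefore lay below the isolation distance, and the intervals of the first pair of member classes (5.80 to 6.25 and 5.93 to 6.45) overlapped as well.

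**Figure D3:**
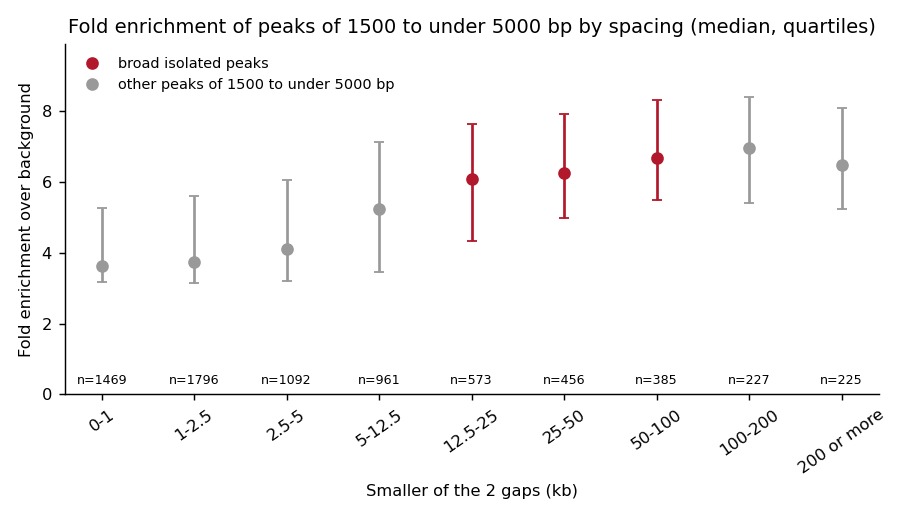
Fold enrichment over background (linear axis) of the peaks of 1500 to under 5000 bp by the smaller of their gaps in kb; members are red, other peaks of this width grey, points are medians and bars are quartiles, with the number of peaks below each. The medians rise from 3.63 for gaps under 1 kb to 6.09 in the first class of members and to 6.96 between 100 and 200 kb.

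The values at the limits of the rule were compared as a description. The 219 members of 1500 to 1599 bp had a median fold enrichment of 6.10 (5.70 to 6.50), and the 230 isolated peaks of 1400 to 1499 bp had 5.66 (5.36 to 5.99). The narrowest member, chr10:47856164-47857663 with 1500 bp, had a fold enrichment of 6.57, and the widest peak left out, chr8:22928072-22929570 with 1499 bp, had 3.62. At the isolation distance, 74 members with a smaller gap of up to 13499 bp had a median of 5.77 (5.08 to 6.60), and 72 peaks of the same width with a gap of 11500 to 12499 bp had 5.87 (5.54 to 6.46). The member nearest to this limit, chr1:72398936-72401807, had a gap of 12507 bp and a fold enrichment of 4.79, and chr12:17485136-17486649, just outside with 12450 bp, had 5.74. At the far limit, chr1:42586224-42587973 was inside with a smaller gap of 99776 bp and a fold enrichment of 4.13. The peak chr8:58541377-58543310 was outside with 100104 bp and 6.26. The 50 members within 10 kb of this limit had a median of 6.66 (5.95 to 7.01), and the 37 peaks within 10 kb beyond it had 6.96 (5.92 to 7.77). The classes on both sides of these 3 limits had overlapping intervals.

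At the upper limit of width, the widest members were chr7:140739907-140744904 with 4998 bp and a fold enrichment of 7.01, and chr7:113936434-113941425 with 4992 bp and 7.17. They were followed by chr20:46425902-46430820 with 4919 bp and the highest fold enrichment of the widest 5, 10.3. The fourth, chr5:109619910-109624732, was 4823 bp wide with a fold enrichment of 6.82, and beside its gap of 1340474 bp on the left it had 1 other peak within 500 kb. The fifth, chr18:71394507-71399326, had 4820 bp and 8.26. Of these 5, only the first was not the strongest peak of its surroundings, where it held rank 8 beside 86 other peaks. The 28 isolated peaks of 5000 bp or more with the same gaps had a median fold enrichment of 7.39 (5.56 to 9.92), and the narrowest of them, chr9:82118976-82124032 with 5057 bp, had 5.95.

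The place of each member in its surroundings was then examined. The strongest peak was taken as the one with the highest fold enrichment among all peaks centred within 500 kb. This was the case for 357 members (25.2%, 95% interval 23.1 to 27.6) and for 405 narrow isolated peaks (4.50%, 4.09 to 4.95). Of all peaks of the list, 2203 (5.30%) were the strongest in this sense. Among other peaks of the members' width the share was 7.30% in joined and 56.4% in remote peaks, so it was not highest in the members. The remote peaks had a median of only 3 other peaks within 500 kb. The median rank was 3 for members and 9 for narrow isolated peaks. The share of members fell as the surroundings filled, from 57.1% (49.2 to 64.6) of the 156 members with up to 5 other peaks to 12.9% (10.2 to 16.2) of the 481 with at least 31. In narrow isolated peaks it fell from 17.1% (14.6 to 20.0) to 1.57% (1.19 to 2.07). At each of the 6 classes of peak number, the interval of the members lay above that of the narrow isolated peaks.

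The share of joined peaks of the same width that were the strongest was below that of the members in each class of surrounding peaks. It was nearest with 6 to 10 others. The intervals of both groups overlapped in each class except that of at least 31 others. With 6 to 10 other peaks, 32.2% of the members (26.5 to 38.4) and 31.3% of the joined peaks (25.2 to 38.1) were the strongest, and their median fold enrichments were 6.45 and 6.23. With at least 31 other peaks, the shares were 12.9% and 4.26% (3.70 to 4.90), and the medians 5.66 and 3.69. Most joined peaks, 4319 of 5318, were in this last class, against 481 of the 1414 members. Joined peaks as a whole had a median of 68 other peaks within 500 kb, against 19 for the members, and the last class has no upper limit. The part of this density in the lower fold enrichment of joined peaks was not tested.

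**Figure D4:**
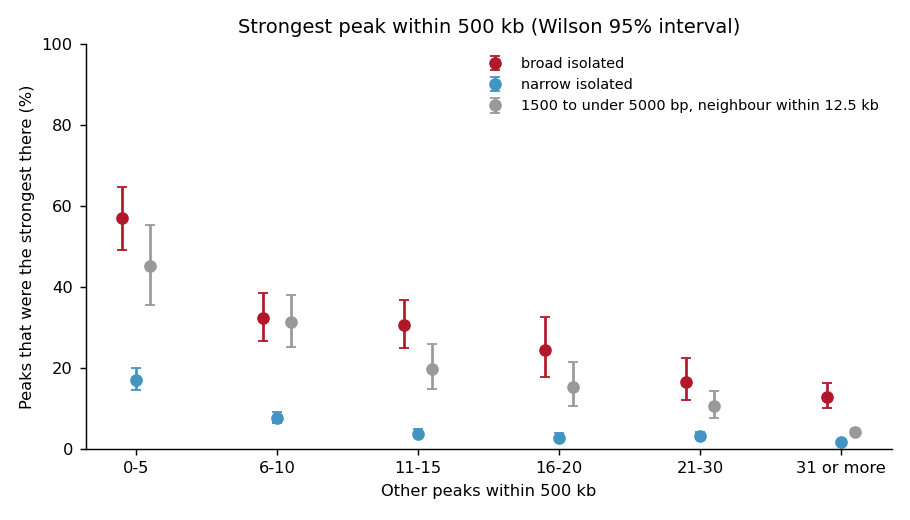
Share of peaks (%) that had the highest fold enrichment among all peaks centred within 500 kb, by the number of other peaks there, for broad isolated peaks (red), narrow isolated peaks (blue) and joined peaks of 1500 to under 5000 bp (grey). Bars are Wilson 95% intervals, and the red points fall from 57.1% to 12.9% while staying above the blue ones.

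The members with the fullest and the emptiest surroundings show how far these differ. The peak chr10:107385180-107386763 was 1584 bp wide and had 149 other peaks within 500 kb, and with a fold enrichment of 8.09 it was the strongest among them. The peak chr19:53687013-53689126 had 134 others and held rank 5 with 6.23. The peak chr10:15041347-15044358 had 132 others and ranked 54th, enriched 3.36-fold at a −log10 q of 2.76. Of the 15 members with a single other peak within 500 kb, the 3 taken by order of chromosome name and start were chr1:229638476-229639987 with a fold enrichment of 6.27, chr14:64686121-64687753 with 7.39 and chr14:72377818-72381131 with 9.65. All 3 were stronger than that other peak.

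The peaks directly on either side were compared with the members. The nearer neighbour was 612 bp wide and enriched 3.51-fold by its medians (quartiles of the latter 2.95 and 4.92), and the farther one 682 bp and 3.68-fold. These were values like those of narrow isolated peaks, and 69.4% (66.9 to 71.7) of the nearer neighbours were isolated themselves. The share was much the same, 69.0% (68.0 to 70.0), for the nearer neighbours of narrow isolated peaks. In both groups the rule already sets the gap on the side of the isolated peak. In total, 989 members (69.9%, 67.5 to 72.3) were stronger than both neighbours, and 97 (6.86%) were weaker than both. Of the narrow isolated peaks, 30.1% (29.2 to 31.1) were stronger than both. The fold enrichment of a member was a median of 1.27 times that of its stronger neighbour (quartiles 0.93 and 1.81), and that of a narrow isolated peak 0.80 times. A member was wider than both neighbours in 88.8% of cases, which follows largely from the rule on width.

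Most members did not have another member as a direct neighbour. Of the nearer neighbours of members, 82 (5.80%) were members as well, and of the nearer neighbours of narrow isolated peaks 838 (9.32%) were. The share for members was below that for narrow isolated peaks. Members made up 3.40% of the whole list, but this is not a like base for either share. The rule already sets the gap of such a neighbour on the side of the isolated peak. Nothing is therefore read from either share being above 3.40%. The 1414 members formed 1254 single occurrences and 80 adjacent pairs, and there was no run of 3. The median distance from a member to the nearest other member was 374 kb, with quartiles of 151 and 873 kb. It was under 100 kb for 240 members (17.0%) and at least 1 Mb for 312 (22.1%). The farthest was 15.5 Mb from the next.

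The distribution over chromosomes was evaluated last. Broad peaks made up 13.6% (12.9 to 14.2) of the 10434 isolated peaks in populated neighbourhoods. The share was highest on chromosome 7 with 15.7% (12.8 to 19.1, 82 members) and chromosome 6 with 15.7% (13.0 to 18.9, 92 members). It was lowest on chromosome 13 with 10.8% (8.20 to 14.04, 47 members) and chromosome 11 with 11.1% (8.07 to 15.0, 35 members). The intervals of these 4 chromosomes overlapped. The share rose with the smaller gap, from 12.2% (11.3 to 13.2) between 12.5 and 25 kb to 18.1% (15.5 to 20.9) between 75 and 100 kb, so that the less crowded isolated peaks were more often broad.

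Per Mb of chromosome span between the first and the last peak, the autosomes carried 0.523 members. Chromosome 12 had the most, 0.913 (95% Poisson interval 0.673 to 1.21), and chromosome 2 the fewest of the autosomes, 0.334 (0.269 to 0.411). The ratio between them was 2.73, whereas the highest and lowest autosome differed by a ratio of 7.40 for all peaks of the list. Narrow isolated peaks ran from 2.26 per Mb on chromosome 2 to 6.29 on chromosome 12, so the narrower range was not particular to the members. The median fold enrichment of the members exceeded that of the narrow isolated peaks on each of the 21 chromosomes, with ratios from 1.54 to 1.98. The highest median was found on chromosome 6, 6.98 (6.44 to 7.44), and the lowest on chromosome 12, 5.104 (4.61 to 6.03).

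The X chromosome was singled out after its values were seen. It carried 49 members, 0.308 per Mb (0.228 to 0.407), the lowest density of the 21 chromosomes, although the interval overlapped those of 13 of the 20 autosomes. All peaks of the list were also sparse on the X, with 6.87 per Mb, and of the autosomes only chromosome 2 had fewer (5.97). Its share of broad peaks among isolated ones, 15.3% (11.7 to 19.6), was not low. The members on the X had a median fold enrichment of 5.33 (4.28 to 5.83), and those on the autosomes together 6.33 (6.23 to 6.45). Of the X members, 27 (55.1%, 41.3 to 68.1) reached −log10 q of 10, against 83.7% (81.7 to 85.6) on the autosomes together. The lowest autosome was chromosome 12 with 68.8% (54.7 to 80.1), and its interval overlapped that of the X. The narrow isolated peaks of the X, with a median of 3.46, were inside the autosomal range. The copy number of the X in these cells was not given, and its part in these values was not tested.

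**Figure D5:**
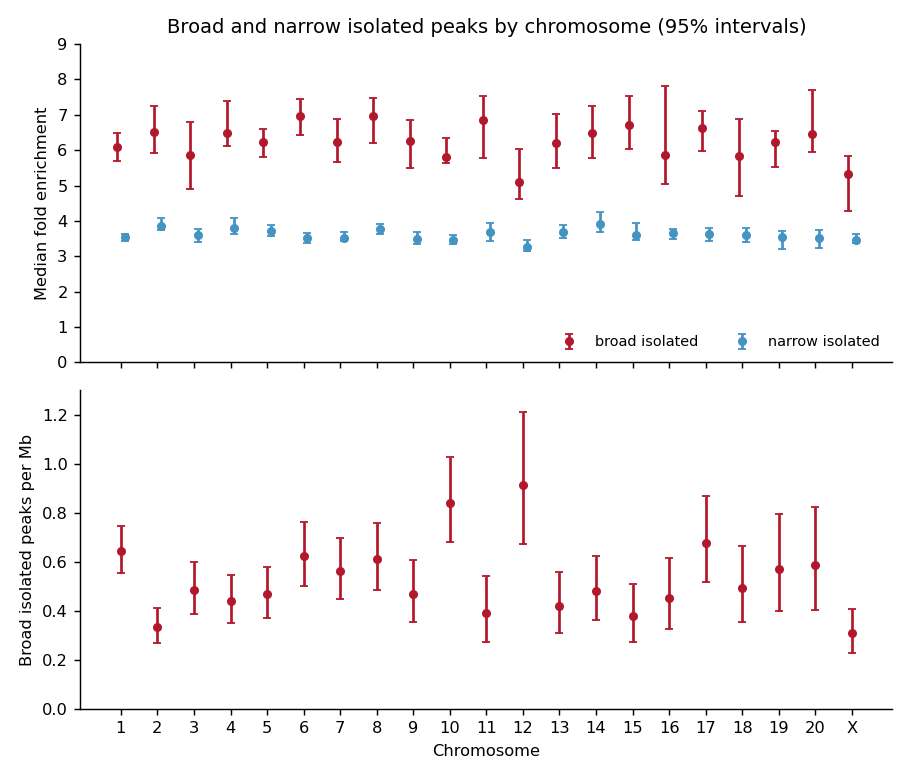
Upper panel, median fold enrichment over background of broad (red) and narrow (blue) isolated peaks by chromosome, with 95% intervals of the median; lower panel, broad isolated peaks per Mb with 95% Poisson intervals. The red medians are above the blue ones on each of the 21 chromosomes, and chromosomes 12 and X have the lowest of them, 5.104 and 5.33.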

How the data were processed

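RYBP ChIP-seq and input were measured in CMs from newborn rat hearts. In their methods the authors describe Trim Galore for trimming, Bowtie2 for alignment (here to Rnor_6.0), Samtools for the removal of duplicates and MACS2 for calling ChIP against input. The deposited list gives per region a linear fold enrichment (a ratio over background), −log10 p and −log10 q values averaged over the region, and an integer score; the authors' −log10 p and score were not used. A mean over a wide region is low where only its core is strong. The methods also describe merging alignments of biological replicates, whereas the labels give 1 ChIP sample here, so whether this list rests on merged replicates could not be settled. The threshold in the methods is a false discovery rate of 0.01, but 28.8% of the list had a mean −log10 q under 2. The lowest mean −log10 q of the list was 1.002. The setting used for this list is not given in the sources used here. The depth is unknown.

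Gaps were measured edge to edge, and start positions are printed 1-based. Medians carry binomial order-statistic intervals, shares Wilson intervals and densities exact Poisson intervals, all of 95%; they treat peaks as independent. Since ChIP and input give both the rule and the values, no test was made. The members and comparison groups were chosen with earlier results of these data known. The named peaks were the 5 with the highest and the 5 with the lowest −log10 q, the 5 with the highest fold enrichment, the 5 widest, the 3 with the most and the 3 with the fewest peaks within 500 kb, and those next to each limit, of which the nearest are printed; chromosomes with the 2 highest and the 2 lowest shares of broad peaks were named, and others after their values were seen. Alternatives to the list, gaps and widths (9) were tried. The steps were tested on simulated data. No gene was assigned and no sequence is shown, because the tables at hand are of GRCr8. The work was done in Python 3.11.15 with scipy 1.17.1, pandas 2.3.3, numpy 2.4.6 and matplotlib 3.10.9.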

Additional observations from a re-analysis of the deposited data

How the results depend on the processing

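The number of members (1414) stayed within 1.5 times under 5 of 9 alternatives. There were 2375 with gaps of at least 5 kb, 841 with gaps of at least 25 kb, 3172 with widths from 1000 bp and 622 from 2000 bp, which follows from the limits themselves. The ratio of the median fold enrichment, broad to narrow isolated peaks (1.74), stayed above 1 under all 9. It left its interval at −log10 q of at least 2 (1.55) and at least 5 (1.24), and with widths from 1000 bp (1.68) and 2000 bp (1.79). The filters on −log10 q remove weak narrow peaks by construction. They also remove weak neighbours, which changes the members themselves. These numbered 1670 at −log10 q of at least 2 and 1980 at least 5.

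The median fold enrichment of the members (6.28) was 6.15 when peaks under 1 kb apart were merged (keeping the highest value), 6.17 at −log10 q of at least 2, 5.93 and 6.44 with gaps of at least 5 and 25 kb, 5.72 and 6.69 with widths from 1000 and 2000 bp, and 6.16 with a smaller gap under 50 kb. The share with −log10 q of at least 10 (82.7%) was 78.7% at −log10 q of at least 2, 85.6% at 5, 77.7% after merging, 73.0% and 89.2% with gaps of 5 and 25 kb, 76.0% with widths from 1000 bp and 78.7% with a smaller gap under 50 kb. The share that was strongest within 500 kb (25.2%) fell to 22.4% for a list from −log10 q of 2 and to 19.1% for one from 5. It was 19.3% and 29.0% with gaps of 5 and 25 kb, 17.2% and 30.1% with widths from 1000 and 2000 bp, 20.9% with a smaller gap under 50 kb and 32.8% without an upper limit on it. Broad peaks as a share of isolated ones (13.6%) were 16.9% for the list from −log10 q of 2 and 26.5% for that from 5, 15.1% after merging, 14.6% with gaps of 25 kb, 30.4% and 5.96% with widths from 1000 and 2000 bp, 12.6% with a smaller gap under 50 kb and 14.9% without an upper limit. Apart from the filters and limits, the cause of these changes was not tested. No replicate could be left out, and no paired analysis was possible because the list comes from 1 ChIP sample. Depth was not analysed, so what it limits is unknown.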
